A study of Homo sapiens with 12 samples.

Results

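The integrated stress response genes described here are 36 genes chosen by symbol: the transcription factor ATF4, its partners, its targets in amino acid synthesis and transport, and the kinases and phosphatase subunits that act on eIF2. All 36 were among the 27411 genes listed with expression values, and 31 of them passed the filter on low values and were tested with 11383 genes in all. The m6A peak lists held 66 peaks assigned to these genes in WTAP-silenced cells, of 35851 listed, and 73 in control cells, of 35341 listed. Every level was measured in cultured Kasumi-1 cells, a human line derived from acute myeloid leukaemia with t(8;21). Cells had received, by lentivirus, a short hairpin RNA against WTAP (shWTAP) or a scramble control hairpin, were otherwise labelled wild type, and had been selected with puromycin at 2 µg/ml from 48 h after transfection for at least 24 h. The 12 samples formed 4 groups of 3 labelled biological replicates: shWTAP immunoprecipitate (IP), shWTAP input, control IP and control input. The samples used here carry 1 WTAP hairpin label, so effects of the hairpin and of WTAP loss cannot be told apart. WTAP is a subunit of the complex that writes N6-methyladenosine (m6A), and methylated RNA immunoprecipitation sequencing compares RNA pulled down by an anti-m6A antibody with the input RNA.

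In the integrated stress response, kinases that sense amino acid shortage, misfolded protein in the endoplasmic reticulum, double-stranded RNA or haem shortage phosphorylate eIF2, which slows general translation while ATF4 mRNA is translated more. ATF4 protein then activates genes for amino acid synthesis, amino acid import, transfer RNA charging and antioxidant defence, and it induces regulators that feed back on the response, such as TRIB3 and PPP1R15A. Because ATF4 is controlled largely at translation, its mRNA level is not a measure of its activity, and the input libraries measure RNA only.

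ATF4 binds with C/EBP family partners at an element whose core reads TGATGNAA, for example TGATGCAA. The stretches below show members with those letters before their start, since this is the element by which ATF4 targets are known. Promoter windows of 300 bases, 250 before and 50 after each RefSeq start (GRCh38.p14), were given for 27 of the 36 members and searched on both strands. TGATGCAA stood in the windows of 3 of the 27 members (11.1%), against 1.08% of the 27305 genes with an entry. The looser TGATGNAA, which includes every TGATGCAA, stood in 7 members (25.9%), against 4.46% of genes. Genes differ in how many starts they have, and of the 35116 windows 0.866% held TGATGCAA and 3.62% held TGATGNAA. The 27 members had 41 windows, more per gene than all genes with an entry, so the shares per gene are not like for like. The share of member windows with a match is not given here. Capitals mark the core, or its reverse complement TTGCATCA in CHAC1, and each line runs 5′ to 3′ on the strand of the gene:
ASNS: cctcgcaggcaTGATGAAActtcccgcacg
ATF3: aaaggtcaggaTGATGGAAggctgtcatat
CHAC1: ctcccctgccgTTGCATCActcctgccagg
PPP1R15B: cccgccccggcTGATGCAAcctcacgctgc
SLC1A5: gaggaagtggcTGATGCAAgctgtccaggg
The core began 68 bases before the start in ASNS (chr7:97872458-97872487, minus strand), 191 in ATF3 (chr1:212565205-212565234, plus), 209 in CHAC1 (chr15:40953251-40953280, plus), 227 in PPP1R15B (chr1:204412026-204412055, minus) and 97 in SLC1A5 (chr19:46784893-46784922, minus). Those distances are to a RefSeq start, and by the spans listed in the expression table the stretches of ASNS, CHAC1 and SLC1A5 lie inside the gene, while those of ATF3 and PPP1R15B lie before it. In SLC3A2 and SLC7A1 the match lay after the start. The other 20 members with a window, TRIB3 among them, had no match in these 300 bases. A match is a run of letters and not a measured binding site.

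The silenced gene and the libraries were examined first. WTAP itself stood at 6.38 ± 0.64 FPKM in shWTAP cells and 11.5 ± 0.234 FPKM in control cells (SD, n = 3 each), 55.6% of control, and the groups did not overlap (limma adjusted p = 0.00663). METTL3, the catalytic subunit of the same complex, was at 8.39 FPKM in shWTAP cells, against 7.51 FPKM in control cells, and did not pass (limma adjusted p = 0.301). FPKM is a fragment value scaled to gene length and library total, so levels can be set beside each other between genes. An exact permutation test of 3 against 3 libraries reaches p = 0.1 at the lowest, and calls were therefore made with limma, fitted across all tested genes on log2(FPKM + 1), with a Benjamini-Hochberg adjusted p under 0.05 counted as passing. All 10 listed markers of myeloid leukaemia cells were tested and limma called 0. Unadjusted p was under 0.05 for 3 lower and 1 higher, against 13.6% and 9.87% of all tested genes. MPO was at 1526 and 1372 FPKM and KIT at 792 and 732 FPKM in shWTAP and control cells. PTPRC was at 19.3 and 23.6 FPKM, RUNX1T1 at 14.8 and 17.6 FPKM and SPI1 at 52.2 and 58.6 FPKM in shWTAP and control cells. Of 12 markers of other cell types in the table, 3 passed the filter and limma called 0, also without adjustment: CD3D at 53.1 and 50.2 FPKM, EPCAM at 42.5 and 41.5 FPKM and CD79A at 2.38 and 1.98 FPKM. The libraries shWTAP 1 and control 3 stood apart, with mitochondrially encoded mRNAs at 0.631% and 0.634% of all FPKM, against 0.301% to 0.333% in the other 4. The depth of the libraries is unknown, because FPKM carries no depth.

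In shWTAP cells 4 of the 31 tested members fell, TRIB3, ATF5, ATF3 and EIF2AK4, and 0 rose. Over all tested genes 2.42% were called lower and 1.48% higher. The log2 difference was negative in 25 members and positive in 6, with a median of -0.19, against a median of -0.03 over all tested genes, of which 55% were negative. All 3 shWTAP libraries lay below all 3 control libraries for 16 members and above them for 1, against a background of 16.2% and 12.1% of tested genes, and 14 members overlapped. Without adjustment, p was under 0.05 for 15 members in the lower direction (background 13.6%) and 0 in the higher (background 9.87%). Every difference is a level in bulk RNA, in which fewer cells with a transcript and less of it per cell cannot be told apart. All 31 tested members had at least 1 FPKM in each of the 6 libraries, so none passed the filter through 1 group alone.

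**Figure D1:**
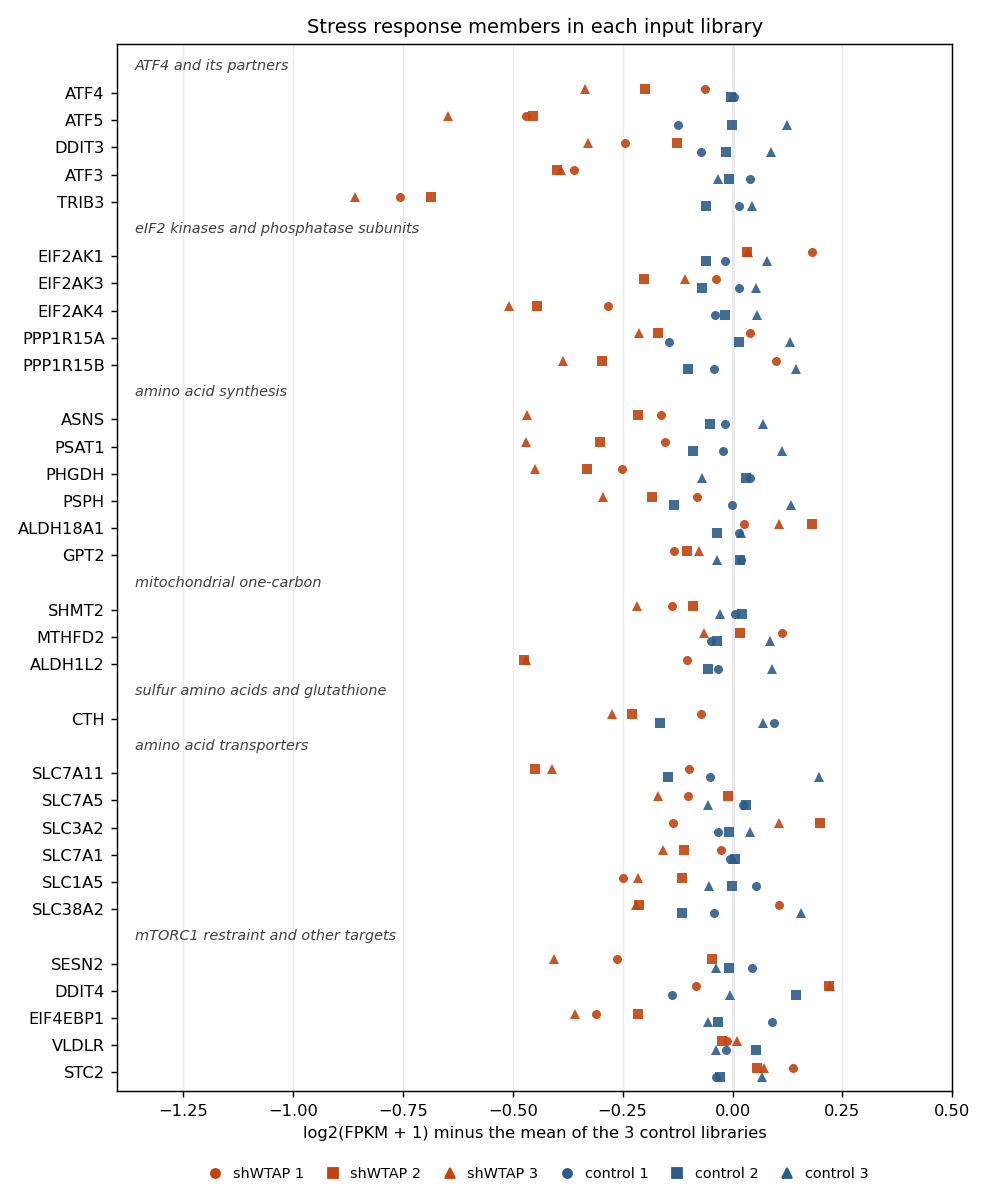
Levels of the 31 tested members in each input library, as log2(FPKM + 1) minus the mean of the 3 control libraries, with shWTAP libraries in orange and control libraries in blue and the library number given by the marker shape. TRIB3 and ATF5 have all 3 shWTAP libraries far to the left of every control library, and shWTAP 3 is the lowest library for 19 of the 31 members.

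Among ATF4 and its partners, all 5 tested members had shWTAP libraries below every control library, against 16.2% of all tested genes. Of the 5, 3 were called lower, against 2.42% of all tested genes. ATF4, the transcription factor at the centre of the response (chromosome 22, 39519672 to 39522683, plus strand), was the most abundant member. Its level was 177, 161 and 146 FPKM in shWTAP libraries 1, 2 and 3, against 185, 185 and 185 FPKM in control libraries 1, 2 and 3. The control libraries lay within 1 FPKM of each other, while the shWTAP libraries were spread widely below them, with shWTAP 1 nearest to the controls. The means were 161 ± 15.4 and 185 ± 0.488 FPKM (SD, n = 3 each), a log2 difference of -0.20 (SE 0.08) that did not pass (limma adjusted p = 0.185).

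TRIB3, a pseudokinase that ATF4 induces and that in turn restrains ATF4 (chromosome 20, 362835 to 397559, plus strand), had the largest difference of the members. It stood at 18.5, 19.5 and 17.2 FPKM in the shWTAP libraries and at 32.3, 30.6 and 33.0 FPKM in the control libraries. The gap between the groups was several times the spread within either. The means were 18.4 ± 1.17 and 32.0 ± 1.22 FPKM (SD, n = 3 each), 57.5% of control, and the log2 difference was -0.77 (SE 0.07, limma adjusted p = 0.00518). TRIB3 passed in all 15 alternative settings and leave-one-out fits, with adjusted p between 0.00193 and 0.0415.

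ATF5, a bZIP factor related to ATF4 whose mRNA is also translated more when eIF2 is phosphorylated (chromosome 19, 49928702 to 49933935, plus strand), fell in shWTAP cells. Its values were 11.2, 11.3 and 9.79 FPKM in the shWTAP libraries, against 14.5, 15.9 and 17.4 FPKM in the control libraries. The highest shWTAP library was below the lowest control library. The log2 difference was -0.52 (SE 0.09, limma adjusted p = 0.0277), and the mean was 67.6% of control. NUP62 lies on the opposite strand of the same region, at 16.0 and 17.1 FPKM in shWTAP and control cells, and whether fragments were counted by strand is not given in the sources used here.

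ATF3, a stress-induced bZIP factor gene that ATF4 activates (chromosome 1, 212565334 to 212620777, plus strand), was expressed at a low level and fell. It stood at 2.22, 2.13 and 2.15 FPKM in the shWTAP libraries and at 3.25, 3.11 and 3.04 FPKM in the control libraries. Both groups were tight and did not overlap. The log2 difference on the log2(FPKM + 1) scale was -0.38 (SE 0.07, limma adjusted p = 0.0313), while the mean was 69.1% of control, since the added 1 shrinks the differences of low genes. The calls on ATF5, ATF3 and EIF2AK4 were each lost when any library other than shWTAP 1 was left out, with adjusted p up to 0.122, 0.157 and 0.164 over all alternatives.

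DDIT3, which encodes CHOP, a C/EBP family factor that heterodimerizes and is linked to cell death under prolonged stress, had 16.2, 17.7 and 15.2 FPKM in the shWTAP libraries, against 18.4, 19.2 and 20.7 FPKM in the control libraries. The groups did not overlap, but the log2 difference of -0.23 (SE 0.08) did not pass (limma adjusted p = 0.136). MARS1, a methionyl-tRNA synthetase gene on the opposite strand of the same region, was lower in shWTAP cells at 42.1 FPKM, against 53.2 FPKM in control cells (limma adjusted p = 0.0454), and its part in the DDIT3 value was not tested. It is named here for that overlap, after its values were seen. NUPR1, a small stress-induced chromatin protein gene, was at 0.0902 and 0.0895 FPKM in shWTAP and control cells, below the filter, and was not tested.

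Of the eIF2 kinases and phosphatase subunits, 1 of 5 was called lower, against 2.42% of all tested genes. EIF2AK4, which encodes GCN2, the kinase activated by uncharged transfer RNA (chromosome 15, 39934115 to 40035591, plus strand), stood at 4.39, 3.81 and 3.61 FPKM in the shWTAP libraries and at 5.38, 5.48 and 5.82 FPKM in the control libraries. No shWTAP library reached the lowest control, and the log2 difference was -0.41 (SE 0.08, limma adjusted p = 0.0411). The mean was 70.8% of control.

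The other kinases and both phosphatase subunits overlapped between the groups. EIF2AK1, the haem-regulated kinase HRI, was the most abundant of the 3 kinases, at 44.3, 39.9 and 40.0 FPKM in the shWTAP libraries, against 38.5, 37.4 and 41.2 FPKM in the control libraries, a log2 difference of 0.08. AIMP2 overlaps EIF2AK1 on the opposite strand, at 13.3 and 16.3 FPKM in shWTAP and control cells, and its part in the EIF2AK1 value was not tested. EIF2AK3, the endoplasmic reticulum kinase PERK, had means of 5.26 ± 0.352 and 5.77 ± 0.295 FPKM in shWTAP and control cells (SD, n = 3 each). PPP1R15A, the stress-induced subunit GADD34 that brings phosphatase 1 to eIF2, had 5.98 ± 0.668 and 6.56 ± 0.718 FPKM in shWTAP and control cells. PPP1R15B, the constitutive subunit CReP, was spread widely, at 28.9, 21.8 and 20.4 FPKM in the shWTAP libraries, against 26.1, 25.1 and 29.9 FPKM in the control libraries, so that shWTAP 1 lay within the control range and shWTAP 2 and 3 below it. The limma adjusted p was 0.419 for PPP1R15B, 0.384 for EIF2AK3, 0.518 for EIF2AK1 and 0.531 for PPP1R15A, and the 95% intervals of their log2 differences reached from -0.51 to 0.12, -0.29 to 0.06, -0.08 to 0.25 and -0.35 to 0.12.

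Of the 6 tested amino acid synthesis genes limma called 0 (unadjusted p under 0.05 for 3, all lower, background 13.6%). They held PHGDH, the member nearest to the threshold without passing. This first enzyme of serine synthesis was just outside it (PHGDH, limma adjusted p = 0.0507), at 23.1, 21.8 and 20.01 FPKM in the shWTAP libraries, against 28.5, 28.3 and 26.3 FPKM in the control libraries, a log2 difference of -0.34 (SE 0.07). PSAT1, the next enzyme of the same route and a far more abundant transcript, stood at 121, 109 and 97.1 FPKM in the shWTAP libraries and at 133, 127 and 146 FPKM in the control libraries (log2 difference -0.31, SE 0.10, limma adjusted p = 0.116). In both genes all shWTAP libraries were below all control libraries, with shWTAP 3 lowest. PSPH, the last enzyme of the route, overlapped between the groups at 17.8 ± 1.39 and 20.4 ± 1.97 FPKM in shWTAP and control cells (SD, n = 3 each, limma adjusted p = 0.263). A pseudogene copy, PSPHP1, is listed at 3.22 and 2.59 FPKM in shWTAP and control cells, so PSPH is uncertain to the extent that reads could be shared.

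ASNS, asparagine synthetase and a classic ATF4 target, whose promoter carried TGATGAAA in the stretch shown above, had 28.5, 27.4 and 22.9 FPKM in the shWTAP libraries and 31.6, 30.9 and 33.7 FPKM in the control libraries. The groups did not overlap, yet the log2 difference of -0.28 (SE 0.09) did not pass (limma adjusted p = 0.128). AC079781, a gene listed on the same strand of that region, was at 0.808 and 0.724 FPKM in shWTAP and control cells. GPT2, the mitochondrial alanine transaminase, was lower in every shWTAP library by a small amount, at 9.85 ± 0.214 FPKM against 10.7 ± 0.246 FPKM in control cells (SD, n = 3 each, log2 difference -0.11, limma adjusted p = 0.333).

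ALDH18A1, which makes the precursor of proline and ornithine, was the member with every shWTAP library above every control library. Its level was 26.6, 29.7 and 28.1 FPKM in the shWTAP libraries and 26.4, 25.4 and 26.5 FPKM in the control libraries. The gap between shWTAP 1 and control 3 was under 0.1 FPKM, and the log2 difference of 0.10 did not pass (limma adjusted p = 0.38). PYCR1, the mitochondrial reductase that completes proline, was listed at 0.0662, 0.0394 and 0 FPKM in the shWTAP libraries and 0.0834, 0 and 0 FPKM in the control libraries, and was not tested. Values listed at or near 0 for PYCR1, CBS and SLC6A9 may be failed estimates, which a table without read counts cannot settle. PYCR1 and SLC6A9 carried m6A peaks in both lists. The SLC6A9 peaks lay mostly outside the listed span of the gene. Inside it were 1 of 300 exonic bases in the shWTAP list and 121 of 1258 in the control list.

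The mitochondrial one-carbon pathway passes the carbon of serine to folate. In it 0 of 3 members passed in limma (unadjusted p under 0.05 for 2, both lower, background 13.6%). SHMT2, which splits serine, had 45.3, 46.9 and 42.8 FPKM in the shWTAP libraries, against 50.2, 50.7 and 49.0 FPKM in the control libraries, without overlap (log2 difference -0.15, SE 0.06, limma adjusted p = 0.204). ALDH1L2, which oxidizes formyl-folate in mitochondria, had 35.9, 27.5 and 27.7 FPKM in the shWTAP libraries, against 37.8, 37.2 and 41.2 FPKM in the control libraries. Here shWTAP 1 was near the controls and shWTAP 2 and 3 stood well below (log2 difference -0.35, SE 0.11, limma adjusted p = 0.119). MTHFD2, the dehydrogenase between those steps, overlapped fully at 78.5 ± 4.91 and 77.3 ± 4.06 FPKM in shWTAP and control cells (SD, n = 3 each), a log2 difference of 0.02 with a 95% interval from -0.15 to 0.19. WASHC4 overlaps ALDH1L2 on the opposite strand, at 11.6 and 10.9 FPKM in shWTAP and control cells, and its part in the ALDH1L2 value was not tested.

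**Figure D2:**
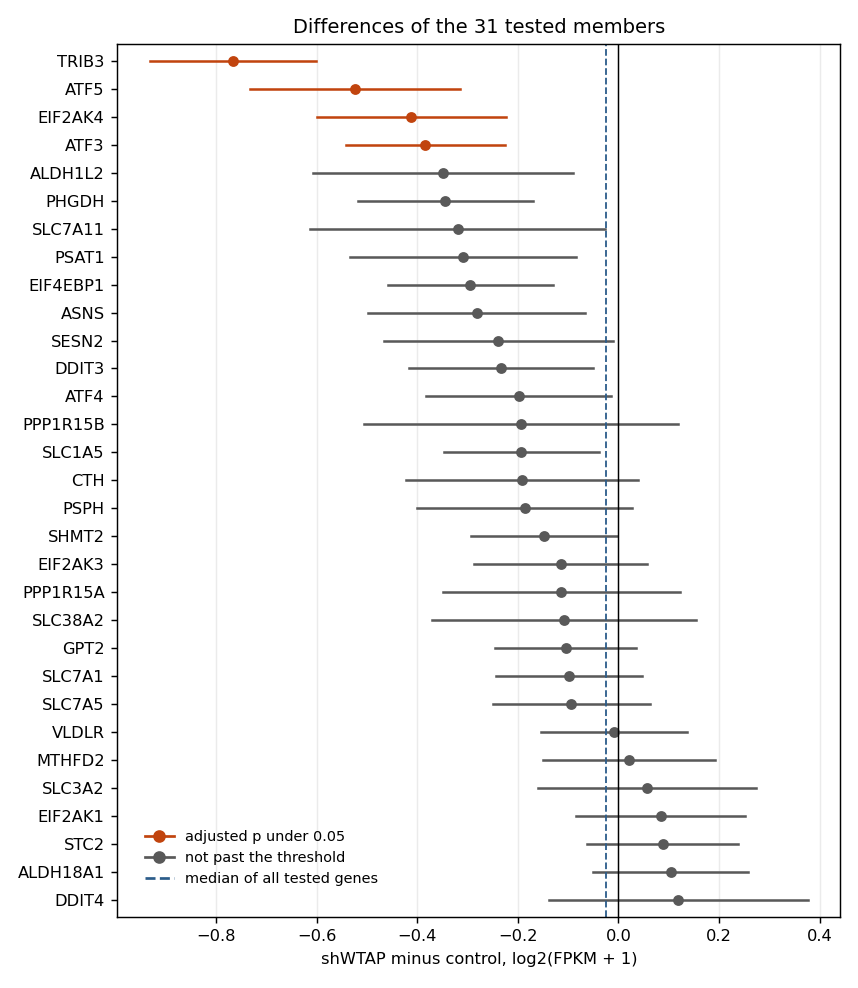
Log2 difference of each tested member, shWTAP minus control on the log2(FPKM + 1) scale, with its 95% interval from limma, ordered from the most negative. The 4 members past the threshold are in orange, the dashed line is the median of all tested genes at -0.03, and the order ends with DDIT4 at 0.12.

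Of the 3 genes of sulfur amino acids and glutathione, 1 had listed values above the filter. CTH, which makes cysteine from cystathionine, was at 2.62 ± 0.27 and 3.15 ± 0.401 FPKM in shWTAP and control cells (SD, n = 3 each), with overlapping groups (limma adjusted p = 0.286). CBS, the enzyme before it, was listed above 0 in 1 library only, at 0.00527 FPKM in shWTAP 1, and its near-identical copy CBSL was listed at 0.00894 FPKM in that library and 0 elsewhere, so reads could be split between them. CHAC1, which degrades glutathione and is among the genes most responsive to ATF4, was at 0.434, 0.559 and 0.381 FPKM in the shWTAP libraries, against 0.251, 0.422 and 0.121 FPKM in the control libraries, overlapping and below the filter.

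Among 7 amino acid transporters, 6 were tested and 0 passed in limma (unadjusted p under 0.05 for 2, both lower, background 13.6%). SLC7A11, the cystine importer xCT, had 4.73, 3.50 and 3.62 FPKM in the shWTAP libraries, against 4.93, 4.55 and 6.03 FPKM in the control libraries, so that shWTAP 1 lay among the controls (log2 difference -0.32, SE 0.13, limma adjusted p = 0.182). SLC1A5, a glutamine importer, did not overlap between groups, at 57.2, 62.9 and 58.5 FPKM in the shWTAP libraries and 70.7, 68.1 and 65.7 FPKM in the control libraries (log2 difference -0.19, SE 0.07, limma adjusted p = 0.139). SLC7A1, a carrier of arginine and lysine, did not overlap either, at 23.7 ± 1.16 and 25.4 ± 0.122 FPKM in shWTAP and control cells (SD, n = 3 each, limma adjusted p = 0.381).

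The remaining transporters overlapped. SLC7A5, the importer LAT1 of large neutral amino acids, was at 58.6 ± 3.31 and 62.5 ± 2.08 FPKM in shWTAP and control cells, and SLC3A2, the heavy chain that pairs with SLC7A5 and with SLC7A11, was at 24.6 ± 2.98 and 23.5 ± 0.644 FPKM (SD, n = 3 each). SLC38A2, an importer of small neutral amino acids, was at 50.3 ± 6.83 and 54.2 ± 5.48 FPKM in shWTAP and control cells. Log2 differences of these 3 genes were -0.09, 0.06 and -0.11. SLC6A9, a glycine transporter, was listed at 0.0152, 0.0664 and 0 FPKM in the shWTAP libraries and 0.0254, 0 and 0 FPKM in the control libraries, and was not tested.

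The last 5 members restrain mTORC1 signalling or serve other roles. Of these limma called 0 (unadjusted p under 0.05 for 2, both lower, background 13.6%). EIF4EBP1, which binds the cap factor eIF4E and blocks translation when it is not phosphorylated, had 106, 113 and 102 FPKM in the shWTAP libraries and 140, 128 and 126 FPKM in the control libraries. The groups did not overlap, and the log2 difference of -0.29 (SE 0.07) was just outside the threshold (limma adjusted p = 0.0622). SESN2, a leucine sensor that inhibits mTORC1, also did not overlap, at 8.20, 9.70 and 7.33 FPKM in the shWTAP libraries and 10.4, 9.99 and 9.76 FPKM in the control libraries, though shWTAP 2 was within 0.1 FPKM of control 3 (log2 difference -0.24, SE 0.10, limma adjusted p = 0.198). DDIT4, which encodes REDD1, another inhibitor of mTORC1, overlapped with the opposite sign, at 32.5, 40.3 and 40.4 FPKM in the shWTAP libraries, against 31.3, 38.2 and 34.3 FPKM in the control libraries (log2 difference 0.12, limma adjusted p = 0.547). VLDLR, a lipoprotein receptor, was at 7.61 ± 0.102 and 7.67 ± 0.292 FPKM in shWTAP and control cells, and STC2, a secreted glycoprotein, at 18.2 ± 0.58 and 17.1 ± 0.747 FPKM (SD, n = 3 each). Their log2 differences were -0.01 and 0.09, with 95% intervals from -0.15 to 0.14 and from -0.06 to 0.24.

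The members as a group did not lie equally low in the 3 shWTAP libraries. Summed over the 36 genes, the level was 1109, 1073 and 994 FPKM in shWTAP libraries 1, 2 and 3, against 1198, 1177 and 1227 FPKM in control libraries 1, 2 and 3. The median of the tested members relative to the control mean was -0.10, -0.18 and -0.27 on the log2(FPKM + 1) scale in shWTAP libraries 1, 2 and 3. shWTAP 3 was the lowest of the 6 libraries for 19 of the 31 members (61.3%), against 20.3% of all tested genes, shWTAP 2 for 4, shWTAP 1 for 3 and a control library for 5. The median over all tested genes on the same scale was 0.02, -0.05 and -0.04 in those libraries, so the members of shWTAP 1 and 2 lay about equally far below the other genes of their library, and those of shWTAP 3 farther. As a share of all FPKM the members made up 0.593%, 0.596% and 0.559% in shWTAP libraries 1, 2 and 3, against 0.656%, 0.641% and 0.659% in control libraries 1, 2 and 3. shWTAP 1 is the shWTAP library of high mitochondrial mRNA, and the part of that share in the members' levels was not tested. Within shWTAP 1 and control 3 alone the members' median difference was -0.14, against -0.02 for all tested genes, and within the other 4 libraries it was -0.18, against -0.03.

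How many members passed rested on single libraries. Without shWTAP 1 the limma fit called 12 members lower, adding ATF4, PPP1R15B, ASNS, PSAT1, PHGDH, ALDH1L2, SLC7A11 and EIF4EBP1 to the 4, and 2751 genes over the whole table. Without shWTAP 2, without shWTAP 3, or without any 1 of the 3 control libraries, it called TRIB3 alone among the members, and 46 to 81 genes over the whole table, against 443 (3.89%) with all 6 libraries. Without both shWTAP 1 and control 3 it called 12 members, with SLC1A5 in place of ASNS, and 3142 of the 11383 genes over the whole table. These totals over the whole table count both directions, so the gain in calls was not particular to the members. ATF4 itself then had a log2 difference of -0.27 (limma adjusted p = 0.0216). No member was called higher in any of these fits.

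**Figure D3:**
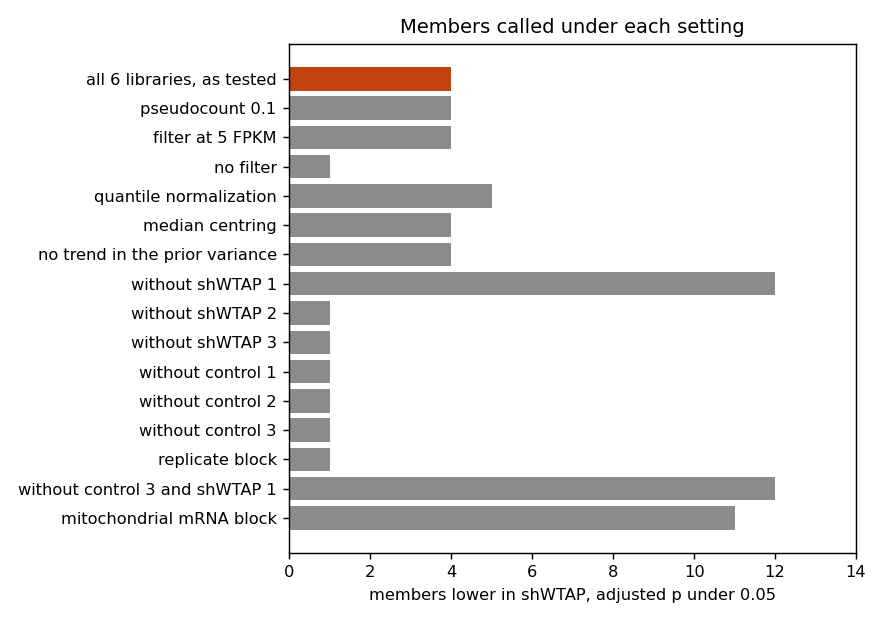
Number of members called lower in shWTAP cells at a limma adjusted p under 0.05 with all 6 libraries (orange) and under each alternative setting (grey). The count is 4 with all libraries, 12 without shWTAP 1 and 1 without any other single library.

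The wider pathway was examined through lists of genes that are not members. Of 45 other listed ATF4 targets, 38 were tested, and by limma 7 fell, 1 rose and 30 did not pass (unadjusted p under 0.05 for 15 lower and 3 higher). Over all tested genes 2.42% were called lower and 1.48% higher, and unadjusted p was under 0.05 for 13.6% lower and 9.87% higher. The median log2 difference of these targets was -0.18, against -0.03 over all tested genes. WARS1, which charges tryptophan transfer RNA, stood at 16.4 FPKM in shWTAP cells, against 32.1 FPKM in control cells, with a log2 difference of -0.93 (SE of 0.10, limma adjusted p = 0.00687). AARS1, the alanyl-tRNA synthetase, was at 27.2 and 35.5 FPKM, HERPUD1, of endoplasmic reticulum protein degradation, at 2.63 and 4.19 FPKM, and CEBPG, a C/EBP partner of ATF4, at 15.2 and 21.3 FPKM in shWTAP and control cells, each called lower (limma adjusted p = 0.0191, 0.0208 and 0.0325). The gene that rose was NDRG1, a stress-responsive gene named here after its values were seen, at 3.59 and 2.26 FPKM in shWTAP and control cells (log2 difference 0.49, limma adjusted p = 0.0402).

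Upstream, the 22 tested genes of eIF2, eIF2B and kinase regulation had a median log2 difference of -0.06, with 0 fallen and 1 risen by limma (unadjusted p under 0.05 for 5 lower and 3 higher). The gene that passed was EIF2A, an initiation factor distinct from the eIF2 complex, at 33.5 FPKM in shWTAP cells, against 26.1 FPKM in control cells (log2 difference 0.35, limma adjusted p = 0.0481). Of the ATF6 and XBP1 arms of the unfolded protein response, 23 of 24 genes were tested, with a median of 0.01, 0 fallen and 1 risen by limma (unadjusted p under 0.05 for 2 lower and 5 higher). MANF, a secreted protein of the endoplasmic reticulum, was that gene, at 23.5 FPKM in shWTAP cells, against 18.4 FPKM in control cells (log2 difference 0.33, limma adjusted p = 0.0411). Among all tested genes 2.42% were called lower and 1.48% higher. Their unadjusted p was under 0.05 for 13.6% in the lower direction and 9.87% in the higher. Differences between these lists and the members were not tested. The calls on AARS1, HERPUD1, CEBPG, EIF2A and MANF were each lost when any library other than shWTAP 1 was left out, with adjusted p up to 0.129, 0.104, 0.141, 0.199 and 0.166 over all alternatives. Those on HERPUD1, CEBPG, EIF2A and MANF were also lost without a filter (limma adjusted p = 0.074, 0.0944, 0.109 and 0.0746). The EIF2A call was lost as well with a pseudocount of 0.1 (limma adjusted p = 0.0503) and with no trend in the prior variance (limma adjusted p = 0.0557). WARS1 passed in 14 of 15 alternatives and missed without a filter (limma adjusted p = 0.0511).

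The m6A peak lists were compared gene by gene. Of the 36 members, 30 had a peak in the shWTAP list that overlapped a peak of the control list by at least 1 base, 1 had a peak in the control list only, and 5 had none in either list. Among the 31 tested members 26 had overlapping peaks, against a background of 71.5% of all tested genes. Of the 66 shWTAP peaks 57 were overlapped in the control list, and of the 73 control peaks 60 were overlapped in the shWTAP list. With 1 list per condition a peak has no replicate, so no gain or loss of m6A was tested, and fold enrichments describe peaks within their own list only.

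**Figure D4:**
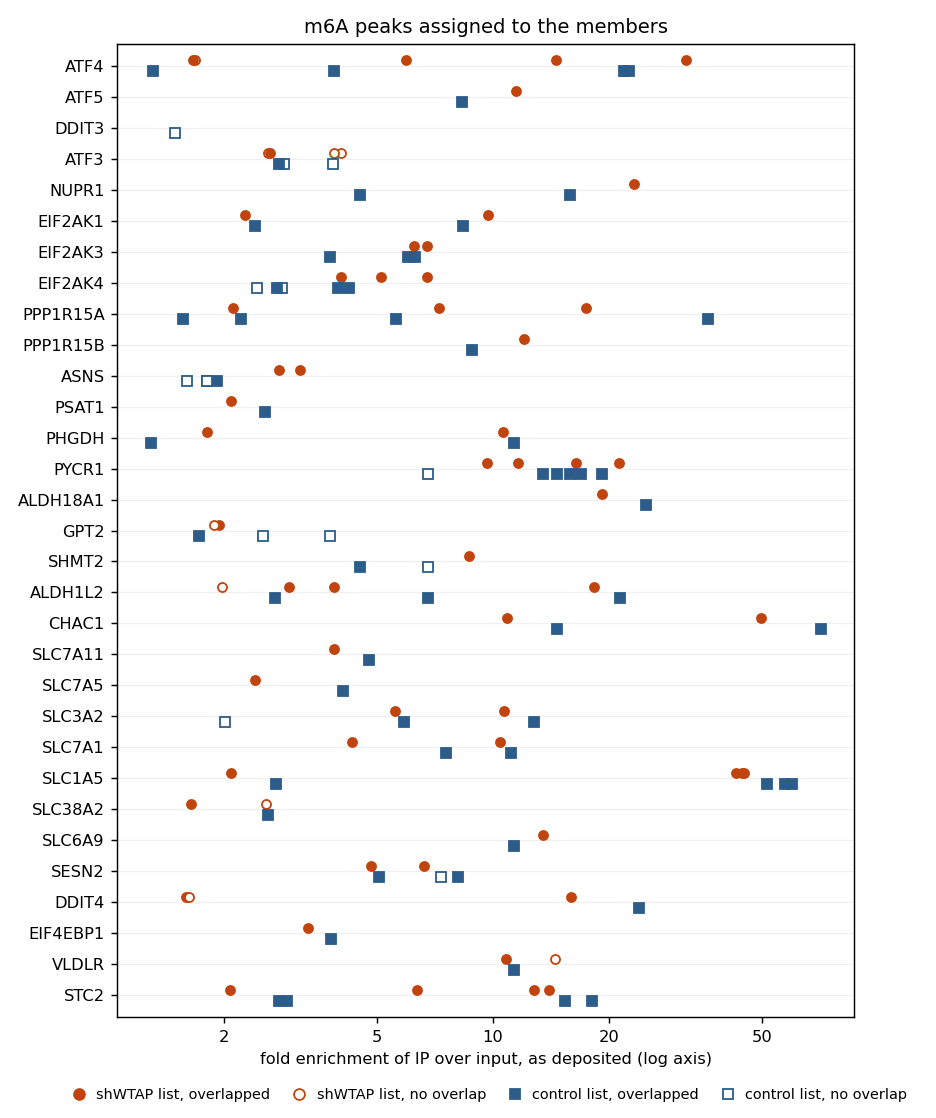
Fold enrichment of IP over input, as deposited and on a log axis, of every peak assigned to a member in the shWTAP list (orange circles) and the control list (blue squares), with filled symbols for peaks overlapped in the other list. Most peaks are filled, DDIT3 has only an open control symbol, and SLC1A5 and CHAC1 hold the highest values.

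Most of the members' peaks lay in the 3' UTR by the deposited annotation, 39 of 66 (59.1%) in the shWTAP list and 39 of 73 (53.4%) in the control list, where 46.3% and 46.8% of all listed peaks were so annotated. The 5' UTR held 16 and 22 of them and other exons 11 and 12. The median fold enrichment of the members' peaks was 6.29 in the shWTAP list, whose whole-list median was 6.75, and 5.6 in the control list, whose whole-list median was 6.77.

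Of the 4 members that fell, 3 carried peaks in both lists, against 72.7% of all tested genes called lower and 71.5% of those that did not pass. TRIB3 had none in either list. ATF5 had a 3' UTR peak at the same bounds in both lists (chr19:49930417-49931193), with a fold enrichment of 11.5 in the shWTAP list and 8.31 in the control list. ATF3 had 4 peaks in the shWTAP list and 3 in the control list, of which 1 from each overlapped, in the 3' UTR (chr1:212619341-212619969 in shWTAP and chr1:212619520-212619879 in control, at 2.64 and 2.77). EIF2AK4 had 3 peaks in the shWTAP list, all overlapped, and 5 in the control list. The control peaks without an overlap were a 5' UTR peak at 2.82 (chr15:39934115-39934325) and an exonic peak whose p-value stood at the limit of 0.05.

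Within the span of ATF4, both lists held peaks annotated to its 5' UTR and its 3' UTR, each without a replicate. The 5' UTR peak spanned chr22:39519672-39520444 at a fold enrichment of 31.8 in the shWTAP list, higher than 96.1% of that list, and chr22:39519672-39520474 at 22.6 in the control list, higher than 92% of that list. A 5' UTR peak of lower fold enrichment followed at 1.66 and 1.31, and a 3' UTR peak had 5.93 in the shWTAP list and 3.87 in the control list. The deposited p-values ranked these peaks in another order. They were 3.6e-09 (shWTAP) and 3.2e-06 (control) for the first 5' UTR peak and 7.9e-52 and 2.5e-23 for the second. For the 3' UTR peak they were listed as 0 in both lists. Further peaks assigned to ATF4 lay outside the listed span of the gene, 2 in the shWTAP list and 1 in the control list. The 5' UTR of ATF4 holds the upstream reading frames through which its translation is controlled, and where they lie relative to these peaks was not examined.

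DDIT3 had a weak control peak only (1.49, p-value 0.034). The highest enrichments of the members were those of CHAC1 in its 3' UTR, at 49.8 in the shWTAP list and 71.1 in the control list, and of SLC1A5 near its start, at 42.9 to 44.9 in the shWTAP list and 51.5 to 59.8 in the control list. AC008622, a gene of the opposite strand, shares the SLC1A5 interval. CHAC1, NUPR1, PYCR1 and SLC6A9 had peaks in both lists although their input levels were below 1 FPKM in every library. Peaks of ALDH18A1 and SHMT2 lay outside the spans of those genes in both lists. When such peaks were left out, 28 members kept an overlapping peak at least partly within the gene. SLC6A9 is counted among the 28, although only 1 base of its shWTAP peak lay inside the span. PSPH, MTHFD2, CTH and CBS had no peak in either list.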

How the data were processed

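The members, the gene lists and the alternatives were chosen with earlier results of these data known, so no list is independent evidence of its direction. FPKM values of 6 input libraries were deposited by the authors. Peaks came as 1 deposited list per condition with, per the file headers, a fold enrichment (the ratio of IP to input), a p-value (up to 0.05) and scores on a log10 scale of p and of the false discovery rate. Tools named in the submitters' processing notes are fastp, HISAT2, ChIPseeker and HOMER, without versions or roles. The program behind the FPKM values, the genome build, the annotation, the peak caller, pooling before peak calling and counting by strand were not given in the sources used here. All 36 members overlapped the RefSeq GRCh38.p14 gene of their symbol by the files' coordinates. Whole reads could not be recovered from low FPKM values.

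For expression, limma 3.58.1 (R 4.3.3) fitted log2(FPKM + 1) with lmFit and a trended eBayes, as shWTAP minus control, for genes of at least 1 FPKM in at least 3 libraries, adjusted by Benjamini-Hochberg over 11383 genes. The script was tested on simulated data. Peaks assigned to the same gene were compared on their exonic blocks, with an overlap of at least 1 base. Groups and replicate numbers came from sample titles. The named genes were all 36 members, WTAP, METTL3 and up to 4 genes of each list with the smallest adjusted p. Alternatives were another pseudocount, filter, scaling and variance model, left-out libraries, and blocks for the replicate number and for mitochondrial mRNA. IP values per gene were not analysed here.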

Additional observations from a re-analysis of the deposited data

How the results depend on the processing

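The number of members called lower was 4, and it was 4 or 5 with a pseudocount of 0.1, a filter at 5 FPKM, quantile normalization, median centring and no trend in the prior variance. At 5 FPKM ATF3 was not tested and PHGDH was called. It was 1 without a filter (82 genes called over the whole table, against 443), 11 with the block for mitochondrial mRNA (1938 genes), 12 without shWTAP 1 and control 3 together (3142 genes) and 1 to 12 when 1 library was left out (46 to 2751 genes). Quantile normalization called 672 genes and median centring 662. Same-numbered libraries deviated together from their group means in 1 of 3 pairs (correlations -0.106, 0.167 and -0.144). The correlation of shWTAP 1 with control 3 was 0.31. With 3 libraries per group these values cannot show whether same-numbered libraries were processed together, so pairing is unknown. The fit with the replicate block called 1 member, TRIB3, and 77 genes. That fit ended the calls on AARS1, HERPUD1, CEBPG, EIF2A and MANF (limma adjusted p = 0.0886, 0.0719, 0.0932, 0.118 and 0.117). No member was called higher in any setting. The members' median stayed between -0.13 and -0.23. Signs turned for VLDLR (0.026 with quantile normalization, 0.023 with median centring, -0.028 to 0.018 with 1 library left out), MTHFD2 (-0.024 to 0.064 with 1 library left out, negative without shWTAP 1 or control 1) and SLC3A2 (-0.015 to 0.152 with 1 library left out, negative without shWTAP 2), none of which was called in any setting. Members with a peak in both lists numbered 24 in the better-scored part of each list and 30 with an overlap of at least 50%. They numbered 28 with peaks at least partly within the gene's span, an alternative chosen after seeing the data. Requiring the same strand of the assigned gene also gave 30. That setting could not change the count, because only peaks assigned to the same gene were compared. The causes of these differences were not tested. Depth is unknown, so it is not known how far counting error limits the low members.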
